A study of Mus musculus with 18 samples.

Results

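The NRF2 antioxidant response was read in murine ED1SQ4 lung cancer cells through 10 genes: *Nfe2l2*, *Keap1*, *Nqo1*, *Hmox1*, *Gclc*, *Gclm*, *Slc7a11*, *Gsr*, *Txnrd1* and *Srxn1*. They were found in the count table by their gene symbols, each matched 1 row, and the whole table has 55450 genes. The ED1SQ4 line came from a lung cancer of a transgenic mouse that overexpressed cyclin E, and this background is shared by all groups. Cells were given vehicle or 0.5 µM CYC065 (Fadraciclib, an inhibitor of CDK2 and, less strongly, of CDK9) for 72 hours. From each treatment, RNA was taken from unsorted cells and from the diploid (2N) and polyploid (4N) cells that had been separated by DNA content after a live DNA stain so that there were 6 conditions. A cell in G2 phase also has a 4N DNA content, so the 4N gate can hold such cells. Whether the unsorted cells were stained and handled like the sorted cells is not stated in the sources used here, so that difference and the choice of cells cannot be told apart in a comparison of sorted with unsorted cells.

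NRF2, the protein of *Nfe2l2*, is a transcription factor that is held at a low level in resting cells because KEAP1 brings it to a ubiquitin ligase built on cullin 3. Oxidants and electrophiles modify cysteines of KEAP1, NRF2 then escapes degradation, pairs with a small MAF protein and binds antioxidant response elements near genes of glutathione and thioredoxin metabolism, quinone detoxification and heme breakdown. Because much of this control acts on protein stability, mRNA of *Nfe2l2* and *Keap1* does not measure NRF2 activity, and no protein was measured here. Several of the target genes also answer to other factors, among them ATF4 for *Slc7a11* and BACH1, a repressor, for *Hmox1*.

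The table held 18 columns, 3 for each condition. In the labels, the library names of the 3 replicates of a condition share a stem and differ only in a part number. Their totals differed by 0.0154% to 0.0681%, and for genes with whole counts they agreed within sampling noise (chi-square per degree of freedom 0.992 to 1.02). Over genes with fractional values it was 4.94 to 8.85, so there the columns differed by more than sampling noise. For such genes the counting intervals given below can be too narrow. *Gclm*, the only one of the 10 genes with fractional values, stood at 0.0475 to 0.689. Whether these replicates came from separate cultures is not stated in the labels. They were counted as 1 sample and summed, to 54750127 to 62795460 counts per library. Every comparison below is therefore between 1 library and 1 library: no P value is given, the spread between cultures was not measured, and each log2 ratio carries an exact 95% counting interval that covers counting error only. Levels are normalized CPM (counts per 1000000 counts of a library, scaled with TMM factors over the 6 libraries), a gene was called when its log2 ratio lay beyond 1 in either direction (over 2-fold), and genes with under 30 summed counts in both compared libraries were left out. All 10 genes passed this filter in every comparison. CPM are relative to the RNA of a library, and in bulk RNA fewer cells that express a gene and less of its RNA per cell cannot be told apart. The summed CPM of 6 epithelial markers was 0.593 to 1.51 and 5 of them stayed under 30 counts in every library, whereas 5 mesenchymal markers summed to 9430 to 14500 CPM. Of 10 lung epithelial markers, 6 stayed under 30 counts in every library, 4 of them (*Nkx2-1*, *Sftpa1*, *Sftpd* and *Scgb1a1*) at 0, while *Foxj1* was detected at low level and *Hopx*, *Foxa2* and *Ager* reached 693, 432 and 408 counts. Some of these sums moved with CYC065. Lung epithelial markers summed to 6.32, 4.61 and 4.26 CPM in vehicle unsorted, 2N and 4N cells and to 24.7, 19.0 and 16.0 CPM with CYC065. Fibroblast markers summed to 8770, 6800 and 5990 CPM with vehicle and to 14800, 11200 and 9100 CPM with CYC065. Leukocyte markers, of which *Cd68* alone passed the count filter, summed to 4.08, 3.45 and 3.79 CPM and to 11.1, 24.2 and 19.2 CPM, and endothelial markers to 0.541 to 1.93 CPM. The part of these markers in the values below was not tested. In the check of the sort, 8 G2 and mitosis genes summed to 995 CPM in vehicle 2N and 1640 CPM in vehicle 4N, and to 364 and 885 CPM in the CYC065 pair.

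**Figure D1:**
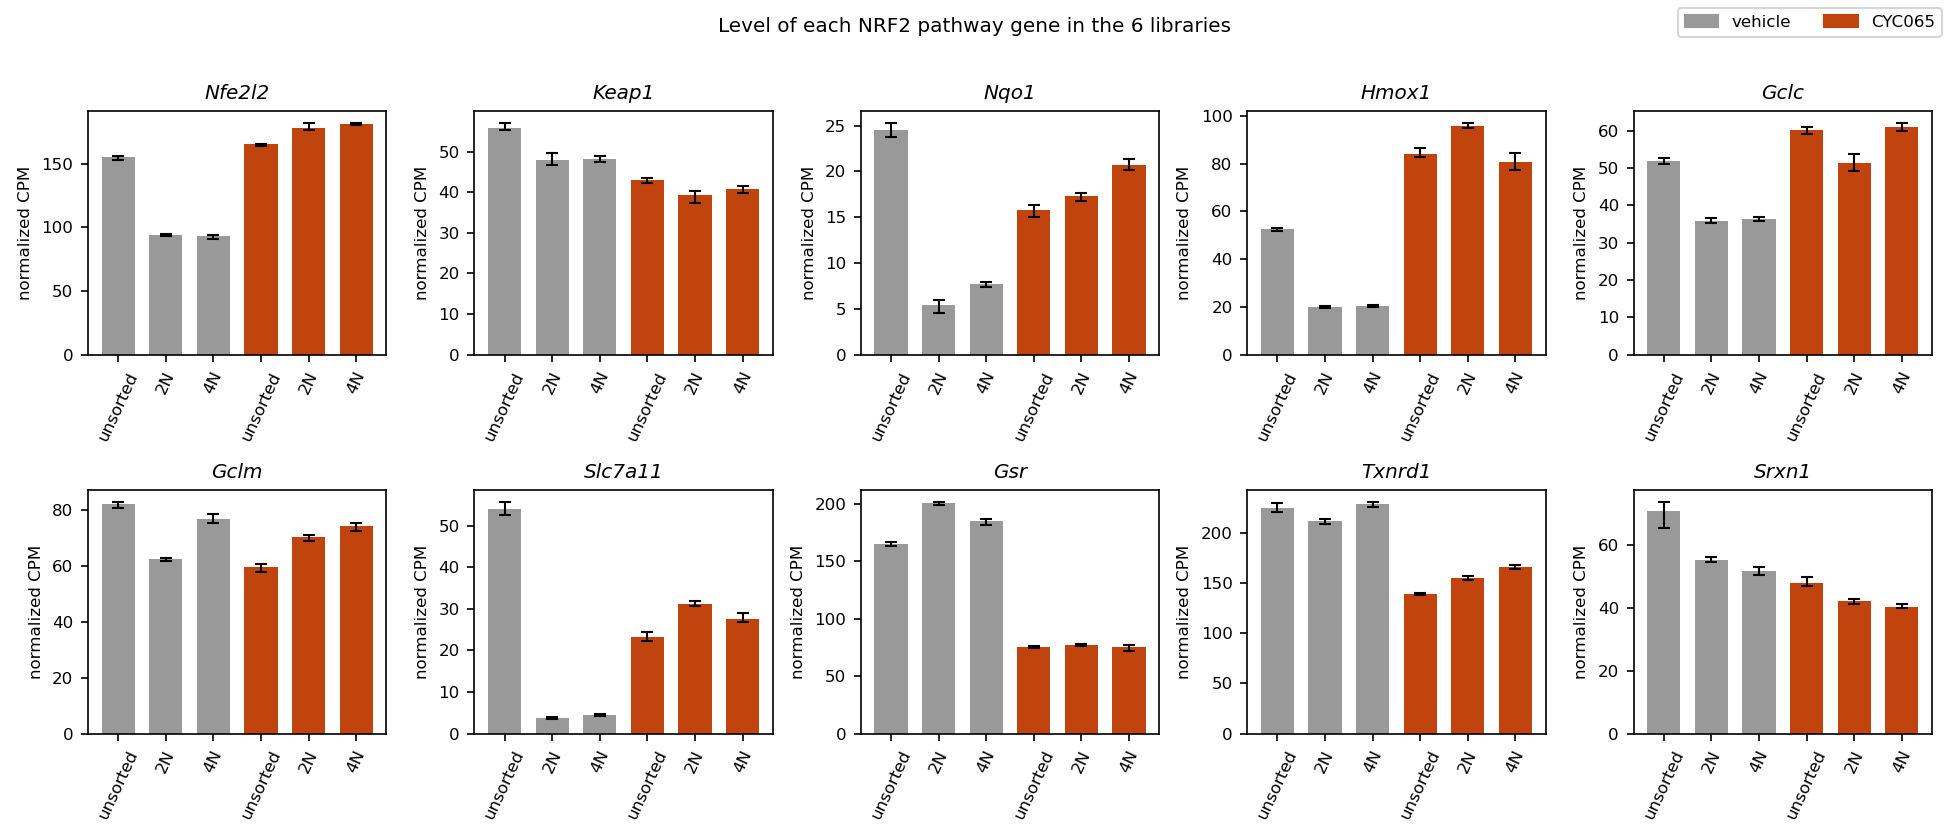
Level of each of the 10 genes in the 6 libraries, in normalized CPM on axes that start at 0 (gray, vehicle; orange, CYC065; unsorted, 2N and 4N from left to right in each color). Bars are the summed library and whiskers the lowest and highest of its 3 columns, which were counted as 1 library. *Slc7a11* stood at 54.0 CPM in vehicle unsorted cells and at 3.68 CPM in vehicle 2N cells.

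The plot of the levels by library shows 3 patterns. *Slc7a11*, *Nqo1* and *Hmox1* were low in both sorted vehicle populations and over 2-fold higher in the vehicle unsorted cells and in all CYC065 libraries. *Gsr*, *Txnrd1*, *Srxn1* and *Keap1* were lower in each CYC065 library than in each vehicle library. *Nfe2l2* and *Gclc* were lowest in the sorted vehicle cells, with smaller ranges, and *Gclm* had the smallest range, 1.38-fold. The share of all genes with each pattern was not counted, so nothing particular to these genes is read from the patterns.

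*Nfe2l2* (chr2:75675513-75704641, minus strand, mm10) stood at 155, 94.0 and 92.8 CPM in unsorted, 2N and 4N cells under vehicle, and at 165, 178 and 181 CPM under CYC065. The sorted vehicle libraries were the low pair and did not differ beyond counting error. The log2 ratio of CYC065 over vehicle was 0.09 (0.05 to 0.13) in unsorted cells, 0.92 (0.87 to 0.97) in 2N cells and 0.97 (0.92 to 1.01) in 4N cells. Both sorted values lay just inside the 2-fold threshold and passed it with scaling to library size only (1.06 in 2N and 1.11 in 4N cells), with edgeR on the columns (1.01 and 1.05) and with DESeq2 on the columns (1.01 in both).

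*Keap1* (chr9:21229730-21239361, minus strand), the sensor that keeps NRF2 low, stood at 55.9, 47.9 and 48.3 CPM in vehicle unsorted, 2N and 4N cells. In CYC065 unsorted, 2N and 4N cells it stood at 43.0, 39.4 and 40.9 CPM. *Keap1* was lower with CYC065 in each population, with ratios of CYC065 over vehicle of -0.38 (-0.46 to -0.30) in unsorted, -0.28 (-0.36 to -0.20) in 2N and -0.24 (-0.32 to -0.16) in 4N cells on the log2 scale. These differences were small, at 1.18-fold to 1.3-fold. An opposite-strand gene, Gm16754, overlaps *Keap1* over 510 bases, and the libraries were made with a stranded kit.

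To show where an antioxidant response element could sit, 9 promoter windows of 7 of the 10 genes (RefSeq, GRCm38.p6, 250 bases before to 50 after a start site) were searched on both strands for the core TGACNNNGC. *Hmox1*, *Gclc* and *Gsr* had no entry in the table. The core was found in 4 of the 7 genes, against 14% of 27025 genes and 12.4% of 32851 promoters overall. It lay 28 bases after the start site in *Srxn1*, and ahead of the start in the other 3, whose surroundings are printed 5′ to 3′ on the strand of the gene with the core, or its reverse complement, in capitals.
*Nfe2l2*, chr2:75704875-75704913, minus strand, core 240 bases before the start: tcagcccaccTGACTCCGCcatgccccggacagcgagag
*Gclm*, chr3:122245403-122245451, plus strand, core 134 bases before the start: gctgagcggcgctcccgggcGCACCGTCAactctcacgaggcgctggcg
*Txnrd1*, chr10:82859094-82859142, plus strand, core 92 bases before 1 of its 3 start sites: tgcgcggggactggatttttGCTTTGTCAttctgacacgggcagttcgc
Of these genes, *Gclm* and *Txnrd1* were not called in any comparison, and *Nfe2l2* lay at the threshold. No core was found in the windows of *Slc7a11* and *Nqo1*, which covers these letters in these windows only, since response elements also lie farther from a start site. The AP-1 site TGACTCA was searched as well and was found in 1 of the 9 windows, that of *Srxn1*, with 2 matches. Of the 32851 promoters, 5.2% held it.

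*Slc7a11* (chr3:49892526-50443614, minus strand), the cystine import subunit of system xc-, which feeds cysteine to glutathione synthesis, had the largest range of the 10 genes, 14.7-fold from the lowest to the highest library. Under vehicle it stood at 54.0, 3.68 and 4.45 CPM in unsorted, 2N and 4N cells, and under CYC065 at 23.2, 31.2 and 27.6 CPM. The vehicle unsorted library was the highest of all and both sorted vehicle libraries were far below the rest. The 207 counts of the vehicle 2N library fell as 73, 65 and 69 in its 3 columns, and the 3096 counts of vehicle unsorted as 1025, 1006 and 1065. CYC065 was thus on opposite sides of vehicle: 8.46-fold higher in 2N cells (log2 ratio 3.08, 2.88 to 3.30) and 6.19-fold higher in 4N cells (2.63, 2.44 to 2.82), but 2.32-fold lower in unsorted cells (-1.22, -1.31 to -1.12). The 2N ratio was higher than that of 98.0% of all genes compared, and the unsorted ratio was higher than that of 9.73%. Among the CYC065 libraries the gene varied little, with 4N at 0.25 (0.14 to 0.35) and 2N at 0.43 (0.32 to 0.53) over unsorted cells.

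The 250 bases before the *Slc7a11* start site are printed because this gene had the largest changes; the motif, TGATGNAA on both strands, a composite site that ATF4 can bind, was added after the values were seen. It was found 66 and 47 bases before the start, once on each strand (capitals), against 3.97% of the 32851 promoters with at least 1 match. None of the other searched windows of the 10 genes held it.
*Slc7a11*, chr3:50443614-50443863, minus strand: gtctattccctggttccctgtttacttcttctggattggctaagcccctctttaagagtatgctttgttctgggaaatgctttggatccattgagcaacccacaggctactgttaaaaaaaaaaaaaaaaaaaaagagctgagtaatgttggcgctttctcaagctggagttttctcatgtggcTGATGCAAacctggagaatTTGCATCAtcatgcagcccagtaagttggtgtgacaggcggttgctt

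*Nqo1* (chr8:107388225-107403206, minus strand), a quinone reductase often used as a readout of NRF2, showed the same opposite signs at a smaller size. Under vehicle it stood at 24.5, 5.39 and 7.76 CPM in unsorted, 2N and 4N cells, and under CYC065 at 15.8, 17.3 and 20.7 CPM. Vehicle unsorted was again the highest library, and CYC065 unsorted and CYC065 2N did not differ beyond counting error. Relative to vehicle, CYC065 was 3.2-fold higher in 2N cells (log2 ratio 1.68, 1.49 to 1.87) and 2.66-fold higher in 4N cells (1.41, 1.26 to 1.57). In unsorted cells it was 1.55-fold lower (-0.63, -0.76 to -0.51).

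*Hmox1* (chr8:75093621-75100589, plus strand), heme oxygenase 1, which opens heme and so frees iron, carbon monoxide and biliverdin, was higher with CYC065 in all 3 populations. It stood at 52.5, 19.8 and 20.3 CPM in vehicle unsorted, 2N and 4N cells and at 84.2, 95.7 and 80.5 CPM in CYC065 unsorted, 2N and 4N cells. The 3 CYC065 libraries lay close together, and vehicle 2N and 4N did not differ beyond counting error. The log2 ratio was 0.68 (0.61 to 0.75) in unsorted, 2.27 (2.18 to 2.37) in 2N and 1.99 (1.90 to 2.08) in 4N cells, that is 1.6-fold, 4.83-fold and 3.96-fold. For this gene the 3 columns of CYC065 4N ranged from 77.2 to 84.3 CPM (chi-square per degree of freedom 3.56). Of the 60 gene and library pairs, 2 had a value over 3.

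The enzyme that makes the first peptide of glutathione, glutamate-cysteine ligase, has a catalytic subunit, *Gclc* (chr9:77754535-77794485, plus strand), and a modifier subunit, *Gclm* (chr3:122245557-122270732, plus strand). *Gclc* stood at 51.8, 35.8 and 36.3 CPM in vehicle unsorted, 2N and 4N cells and at 60.3, 51.4 and 61.0 CPM in the CYC065 libraries in the same order. It was higher with CYC065 in each population, by 0.22 (0.15 to 0.29), 0.52 (0.44 to 0.60) and 0.75 (0.67 to 0.82) on the log2 scale, without reaching 2-fold. *Gclm* stood at 82.2, 62.3 and 76.8 CPM in vehicle unsorted, 2N and 4N cells and at 59.4, 70.2 and 74.1 CPM in the CYC065 libraries. Its direction differed, with log2 ratios of -0.47 (-0.54 to -0.40) in unsorted and 0.17 (0.11 to 0.24) in 2N cells, and in 4N cells the interval included 0 (-0.05, -0.11 to 0.01). Of the 50-base stretches of *Gclm*, 3.92% also occur in other genes, mainly *Ppia* and processed copies. All 18 of its deposited values were fractional, so its counts were in part divided between genes. For the other 9 genes the shared part of these stretches was 0.618% (*Slc7a11*) or none. Gm6061 overlaps *Gclm* on the same strand over 244 bases, which a stranded kit does not resolve. Gm17494 overlaps it on the opposite strand over 296 bases.

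*Gsr*, *Txnrd1* and *Srxn1* were lower with CYC065, and of these *Gsr* alone passed 2-fold. *Gsr* (chr8:33652523-33698163, plus strand), which returns oxidized glutathione to its reduced form, stood at 165, 201 and 185 CPM in vehicle unsorted, 2N and 4N cells. In the CYC065 libraries it stood at 75.4, 77.4 and 75.2 CPM, 3 levels that did not differ beyond counting error from their neighbors. It was the only one of the 10 genes that was called in all 3 comparisons of CYC065 with vehicle in 1 direction: -1.13 (-1.19 to -1.08) in unsorted, -1.37 (-1.42 to -1.32) in 2N and -1.30 (-1.35 to -1.25) in 4N cells, or 2.19-fold, 2.59-fold and 2.46-fold lower.

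*Txnrd1* (chr10:82833951-82897712, plus strand), the cytosolic thioredoxin reductase, stood at 225, 212 and 229 CPM in the vehicle libraries and at 139, 155 and 166 CPM in the CYC065 libraries, each in the order unsorted, 2N, 4N. *Txnrd1* was lower with CYC065 in each population, with log2 ratios of -0.70 (-0.74 to -0.66), -0.45 (-0.49 to -0.41) and -0.46 (-0.49 to -0.42). *Srxn1* (chr2:152105516-152111376, plus strand), sulfiredoxin, which repairs overoxidized peroxiredoxins, stood at 71.0, 55.4 and 51.9 CPM with vehicle and at 48.0, 42.3 and 40.5 CPM with CYC065. It was likewise lower in each CYC065 library, with ratios of -0.57 (-0.64 to -0.50), -0.39 (-0.47 to -0.31) and -0.36 (-0.43 to -0.28) on the log2 scale. In vehicle unsorted cells the 3 columns of *Srxn1* ranged from 65.6 to 73.9 CPM, the widest disagreement of the 60 gene and library pairs (chi-square per degree of freedom 5.98, median 0.401).

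**Figure D2:**
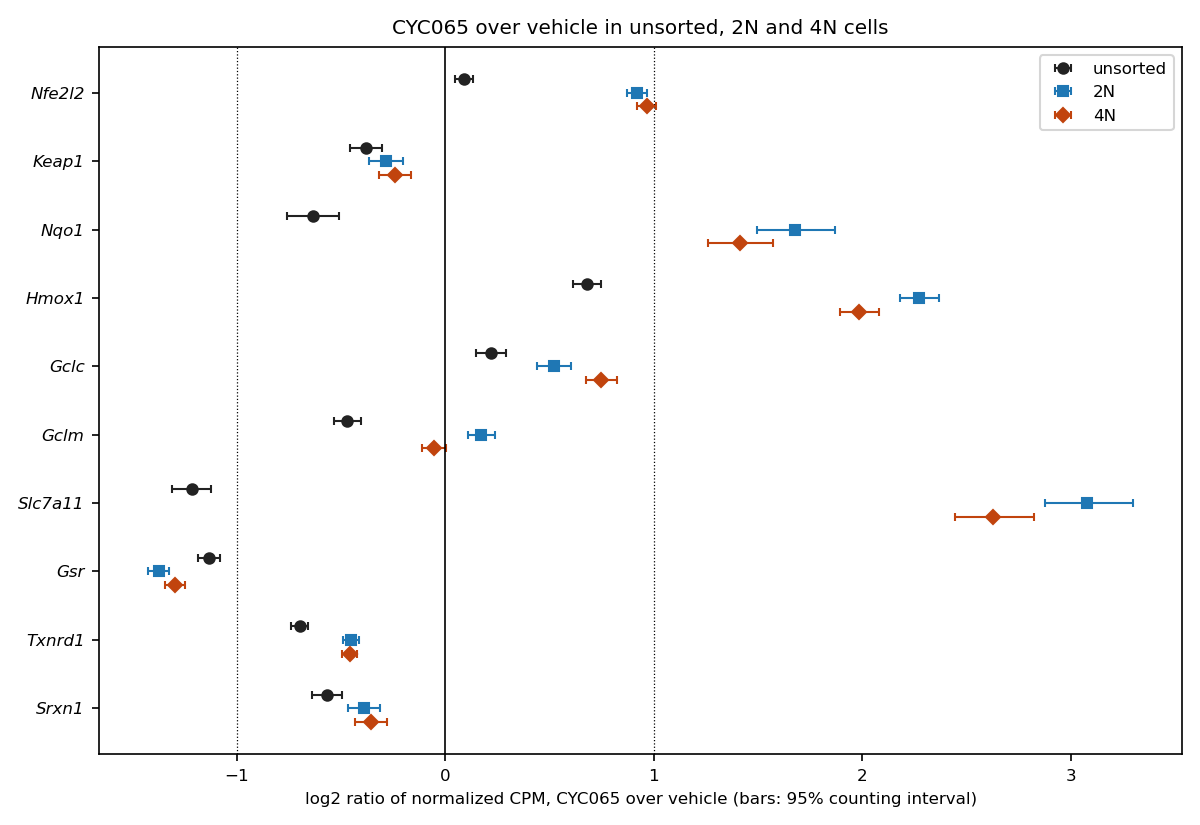
Log2 ratio of normalized CPM, CYC065 over vehicle, for each gene in unsorted (circles), 2N (squares) and 4N cells (diamonds), with 95% counting intervals as bars and dotted lines at 2-fold. *Slc7a11* lay at -1.22 in unsorted and at 3.08 and 2.63 in sorted cells, while *Gsr* lay between -1.13 and -1.37 in all 3.

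The 10 genes did not move in 1 direction with CYC065. In unsorted cells 0 of 10 genes were over 2-fold higher and 2, *Slc7a11* and *Gsr*, over 2-fold lower, where 11.7% and 13.9% of all 14084 genes compared were higher and lower. In 2N cells 3 of 10, *Slc7a11*, *Hmox1* and *Nqo1*, were higher and 1, *Gsr*, was lower, against 14.9% and 13.3% of 14093 genes. In 4N cells the same 3 were higher and *Gsr* was lower, against 14.1% and 11.4% of 14183 genes. The median log2 ratio of the 10 genes was -0.52 in unsorted, 0.35 in 2N and 0.35 in 4N cells, where the median of all genes was -0.07, -0.07 and -0.03. Beside these shares of all genes, the counts are a description of the 10 genes and nothing particular to them is read from them. By direction alone, *Nfe2l2*, *Hmox1* and *Gclc* were higher with CYC065 in all 3 populations and *Keap1*, *Gsr*, *Txnrd1* and *Srxn1* lower in all 3, under each of the 4 scalings tried. The share of all genes that kept 1 direction in all 3 populations was not counted, so these directions too are a description.

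The opposite signs of *Slc7a11* and *Nqo1* came with a difference between the vehicle libraries. The same libraries enter the ratios and that difference, so these are readings of the same values and not separate results. The log2 ratio of *Slc7a11* in sorted cells exceeded that in unsorted cells by 4.30 in 2N (counting SE 0.116) and 3.85 in 4N (SE 0.107), and that of *Nqo1* by 2.31 (SE 0.113) and 2.05 (SE 0.1). Of 13656 genes compared in both, 22 (0.161%) were over 2-fold higher in 2N and over 2-fold lower in unsorted cells, *Slc7a11* among them, and 13 of 13690 (0.095%) in 4N cells. For *Hmox1*, *Nfe2l2* and *Gclm* the 2N ratio exceeded the unsorted one by 1.59, 0.83 and 0.64.

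**Figure D3:**
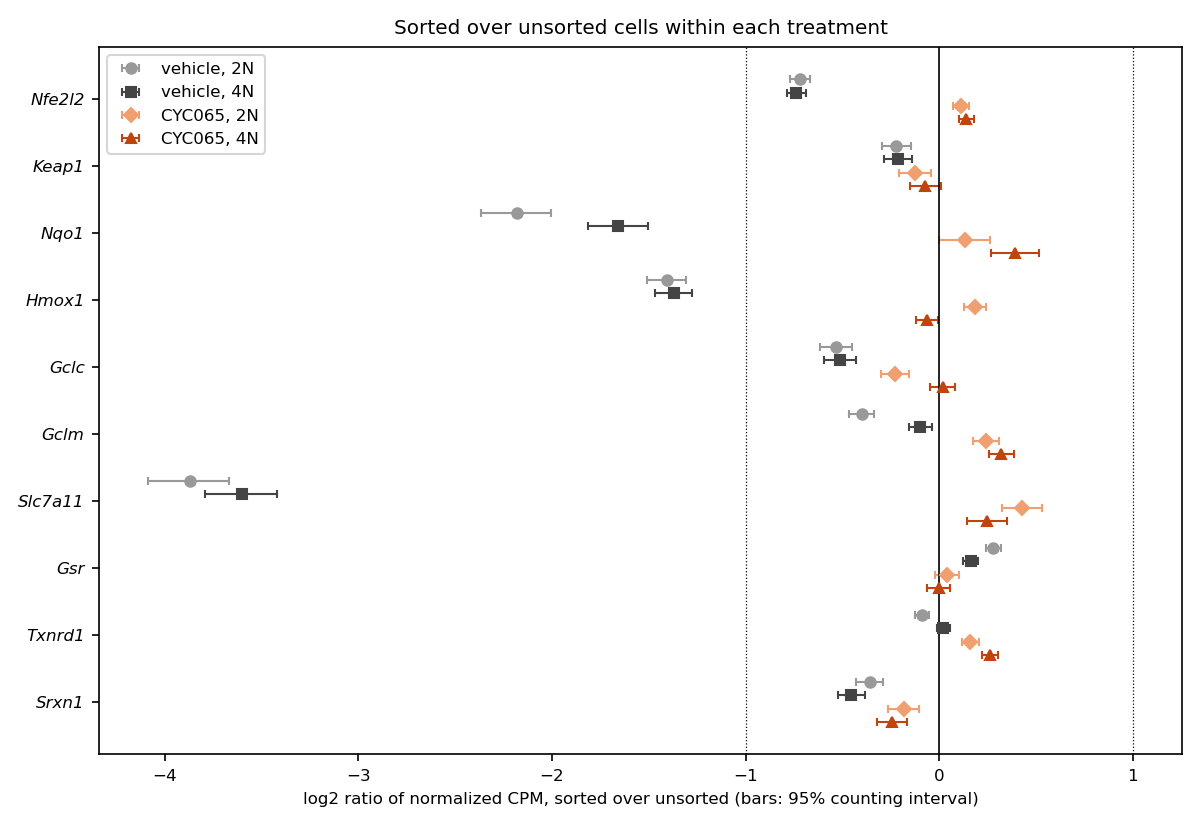
Log2 ratio of normalized CPM, sorted over unsorted cells, for each gene within vehicle (gray circles, 2N; dark squares, 4N) and within CYC065 (light diamonds, 2N; dark orange triangles, 4N), with 95% counting intervals as bars and dotted lines at 2-fold. Within vehicle, *Slc7a11* lay at -3.87 and -3.60, and within CYC065 the 10 genes lay between -0.24 and 0.43.

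Within vehicle, most of these genes stood lower in sorted than in unsorted cells. *Slc7a11* was 14.6-fold lower in 2N cells (log2 ratio -3.87, -4.08 to -3.67) and 12.1-fold lower in 4N cells (-3.60, -3.79 to -3.42), a ratio below which only 0.0805% and 0.182% of genes lay. *Nqo1* was 4.54-fold and 3.15-fold lower and *Hmox1* 2.65-fold and 2.59-fold lower in 2N and 4N cells. These 3 of 10 were over 2-fold lower and 0 over 2-fold higher in both, where 7.22% of 13663 genes were lower and 3.25% higher in 2N, and 8.64% of 13709 lower and 3.58% higher in 4N cells. *Nfe2l2* followed at -0.72 and -0.74, and *Gclc* at -0.53 and -0.51, whereas *Gsr* was higher, at 0.28 (0.24 to 0.32) and 0.16 (0.12 to 0.20). Unsorted vehicle cells stood over 2-fold above both sorted populations in 747 of 13810 genes (5.41%), these 3 included.

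Within CYC065, none of the 10 genes was called in either sorted population. Relative to CYC065 unsorted cells, 3.54% of 14123 genes were over 2-fold higher and 3.21% lower in 2N cells, and 4.18% of 14222 genes were higher and 4.71% lower in 4N cells. The log2 ratios ran from -0.23 (*Gclc*) to 0.43 (*Slc7a11*) in 2N cells and from -0.24 (*Srxn1*) to 0.39 (*Nqo1*) in 4N cells. The signs of the small values of *Keap1* in 2N (-0.13) and of *Hmox1* in 4N cells (-0.06) turned with scaling to library size only, to 0.06 and 0.13. Library make-up moved with the sort as well: the most abundant row, Gm26917, took 7.49% of counts in vehicle unsorted and 2.17% and 1.39% in vehicle 2N and 4N cells, against 10.6%, 6.3% and 5.69% with CYC065, and mitochondrial transcripts took 1.04% against 0.38% and 0.614% with vehicle, and 1.69% against 0.701% and 0.793% with CYC065. Their part in the values of these genes was not tested.

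In the 10 genes, the sorted 4N and 2N cells of 1 treatment were close. Of the 10 genes, 0 were called in 4N over 2N cells with vehicle, where 1.00% of 13364 genes were over 2-fold higher and 1.67% lower, and 0 with CYC065, where 1.58% of 14183 genes were higher and 2.02% lower. With vehicle, *Nqo1* was the farthest from 0, at 0.52 (0.31 to 0.74), then *Gclm* at 0.30 (0.24 to 0.37) and *Slc7a11* at 0.27 (0.00 to 0.54). With CYC065, *Nqo1* was at 0.26 (0.14 to 0.38), *Gclc* at 0.25 (0.18 to 0.32) and *Hmox1* at -0.25 (-0.30 to -0.20). *Nfe2l2* and *Keap1* did not differ between 4N and 2N cells beyond counting error in either treatment, with intervals from -0.07 to 0.04 and from -0.07 to 0.09 with vehicle and from -0.01 to 0.06 and from -0.03 to 0.14 with CYC065.

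The CYC065 response itself was compared between the sorted populations as the log2 ratio in 4N minus that in 2N cells. None of the 10 genes differed by over 1, where 3.61% of 14484 genes were higher and 3.51% lower in 4N cells. The response was smaller in 4N cells for *Slc7a11* (difference -0.45, -0.73 to -0.17), *Hmox1* (-0.29, -0.42 to -0.16) and *Nqo1* (-0.27, -0.51 to -0.03). *Gclm* differed by -0.23 (-0.31 to -0.14). The difference was above 0 for *Gclc* (0.23, 0.12 to 0.34) and *Gsr* (0.08, 0.01 to 0.15), and for the other 4 genes the interval included 0.

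The wider set of 47 other genes known as NRF2 targets, in conjugation of electrophiles, NADPH supply, iron storage and drug export, was read the same way, with 40 or 41 of them above the count filter. In 2N cells 19 were over 2-fold higher with CYC065 and 0 lower (median log2 ratio 0.96), in 4N cells 11 higher and 2 lower (0.62), and in unsorted cells 6 higher and 0 lower (0.03). Of all genes compared, 14.9% were higher and 13.3% lower in 2N, 14.1% and 11.4% in 4N, and 11.7% and 13.9% in unsorted cells. The medians of all genes were -0.07, -0.03 and -0.07 in the same order. The list is described beside these values and was not tested as a set. All 11 of the 4N cells were among the 19 of the 2N cells. Several of these genes belong to families of near copies: without genes that share over 10% of their 50-base stretches with another gene, 14 of 33 were higher in 2N cells with a median of 0.23, 9 of 33 in 4N cells with a median of 0.13 and 4 of 33 in unsorted cells with a median of 0.01. Against unsorted vehicle cells, 11 were over 2-fold lower and 1 higher in vehicle 2N cells, and 9 lower and 1 higher in vehicle 4N cells. Of all genes, 7.22% were lower and 3.25% higher in vehicle 2N cells, and 8.64% lower and 3.58% higher in vehicle 4N cells. The list counts against unsorted vehicle cells and those of CYC065 over vehicle share the sorted vehicle libraries.

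**Figure D4:**
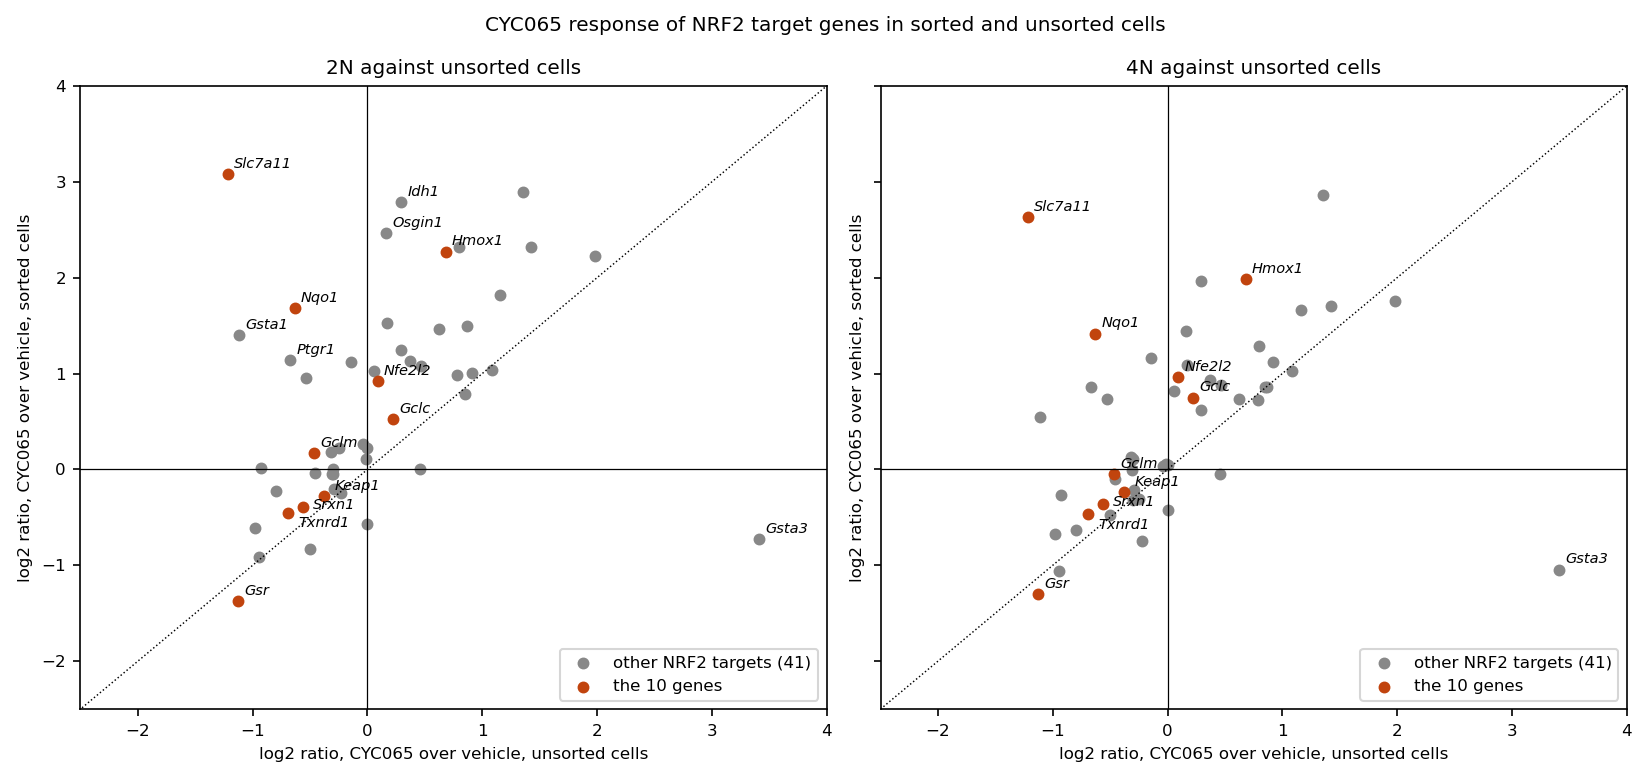
Log2 ratio of normalized CPM, CYC065 over vehicle, in unsorted cells (x axis) and in 2N or 4N cells (y axis of the left and right panel) for the 10 genes (orange) and 41 other NRF2 targets (gray); the dotted line marks equal ratios. In the 2N panel 34 of the 41 other targets and 9 of the 10 genes lay above the line, and *Gsta3*, at most 51 counts in a library, lay far below it. The share of all genes above the line was not counted, so no shift particular to these genes is read from the panels.

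*Mgst1*, a microsomal glutathione transferase, had the largest ratio among them in 2N and 4N cells, 2.89 (2.67 to 3.11) in 2N, and 2.86 (2.66 to 3.07) in 4N cells; in unsorted cells it stood at 1.36 (1.24 to 1.47). *Idh1*, the cytosolic isocitrate dehydrogenase that supplies NADPH, was 6.94-fold higher in 2N cells (17.8 CPM with vehicle and 123 with CYC065) and 3.91-fold higher in 4N cells, was not called in unsorted cells (1.22-fold), and in vehicle it was 5.97-fold lower in 2N than in unsorted cells. *Osgin1* was 5.5-fold higher in 2N and 2.72-fold in 4N cells and was not called in unsorted cells (1.12-fold). *Aox1*, aldehyde oxidase 1, was higher in all 3 populations, by 2.68-fold in unsorted, 5.0-fold in 2N and 3.25-fold in 4N cells. *Ephx1*, microsomal epoxide hydrolase, was higher in all 3 as well, by 2.24-fold, 3.53-fold and 3.16-fold in unsorted, 2N and 4N cells. *Ugt1a7c* was 3.93-fold, 4.7-fold and 3.39-fold higher in unsorted, 2N and 4N cells, but it shares 53.7% of its stretches with neighboring Ugt1a genes, so that its value is uncertain. *Gstp2*, with 54.3% shared, is uncertain too; it was 2.12-fold, 2.05-fold and 2.03-fold higher in unsorted, 2N and 4N cells, and in 4N over unsorted cells with CYC065 it stood at -1.16. In 4N over 2N cells none of these genes was called in either treatment.

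Of 25 genes that regulate NRF2 or pair with it, 23 passed the filter: 1 was higher and 1 lower with CYC065 in unsorted, 2 and 0 in 2N and 1 and 0 in 4N cells, against 11.7% and 13.9%, 14.9% and 13.3%, and 14.1% and 11.4% of all genes. *Bach2*, a relative of the repressor BACH1, was higher with CYC065 in unsorted (1.40, 1.24 to 1.57), 2N (1.26, 1.09 to 1.43) and 4N cells (1.05, 0.89 to 1.22). *Bach1*, which occupies antioxidant response elements and represses *Hmox1*, was higher in 2N cells (1.12, 1.04 to 1.20; 31.9 CPM with vehicle and 69.3 with CYC065), and its ratios in unsorted (0.95, 0.88 to 1.02) and 4N cells (0.88, 0.80 to 0.96) fell just short of 2-fold. *Palb2*, whose protein binds KEAP1 and serves in DNA repair, was called lower in unsorted cells (-1.28, -1.51 to -1.05) and stood at -0.99 (-1.20 to -0.79) in 2N and -0.62 (-0.80 to -0.46) in 4N cells. The medians of the list were 0.03, 0.18 and 0.15 in unsorted, 2N and 4N cells, and 0 of 23 were called in 4N over 2N cells in either treatment.

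Of 36 other antioxidant enzymes and partners, 33 passed the filter: 3 were higher and 3 lower in unsorted, 5 and 1 in 2N and 4 and 3 in 4N cells, and the same shares of all genes apply, so that nothing particular to the list is read from its counts. The median log2 ratio was -0.28, -0.14 and -0.24. The list holds the 3 sestrins, stress proteins that restrain mTORC1. *Sesn2* stood at 25.9, 7.07 and 6.58 CPM in vehicle unsorted, 2N and 4N cells and at 31.4, 43.0 and 36.9 CPM in the CYC065 libraries, so that it was 6.08-fold higher in 2N and 5.6-fold higher in 4N cells and was not called in unsorted cells (1.21-fold). *Sesn3* was 5.74-fold, 3.63-fold and 4.09-fold higher in unsorted, 2N and 4N cells, and *Sesn1* 2.72-fold, 2.78-fold and 2.34-fold. *Sod3*, the extracellular superoxide dismutase, was 3.5-fold higher in 2N and 3.24-fold in 4N cells, with 1.28-fold in unsorted cells. *Ggct*, of the glutathione cycle, was lower in all 3 populations (-1.05, -1.43 and -1.76 in unsorted, 2N and 4N cells). *Txnrd2*, the mitochondrial thioredoxin reductase, was lower in unsorted (-2.05) and 4N cells (-1.27) and stood at -0.97 in 2N cells. *Msra*, a methionine sulfoxide reductase, was lower in unsorted cells (-1.45) and stood at -0.46 and -0.88 in 2N and 4N cells. *Txnip*, which binds and inhibits thioredoxin, had opposite signs: it was 3.35-fold higher with CYC065 in unsorted cells, 2.1-fold lower in 4N cells, and stood at -0.81 (-0.86 to -0.77) in 2N cells. In vehicle it was 6.7-fold higher in 2N and 6.01-fold higher in 4N than in unsorted cells, opposite to *Slc7a11*, *Nqo1* and *Hmox1*.

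Levels of different genes can be set side by side only per length, as CPM per kilobase of merged exons. In vehicle unsorted cells *Gsr* led with 60.0 CPM per kilobase, then *Nfe2l2* with 40.8, *Txnrd1* with 31.8, *Hmox1* and then *Srxn1* with 25.2, and *Slc7a11* was last with 3.88. In CYC065 2N cells *Hmox1* led with 54.6, followed by *Nfe2l2* with 46.9 and *Gsr* with 28.1, and *Slc7a11* was again last with 2.24. In the libraries that match each in treatment or sort, *Gsr* led in vehicle 2N cells with 72.9, ahead of *Txnrd1* with 29.9 and *Nfe2l2* with 24.8, and *Hmox1* led in CYC065 unsorted cells with 48.1, ahead of *Nfe2l2* with 43.4. *Slc7a11* was the least abundant per kilobase in all 6 libraries.

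The shapes of the profiles were compared as the root mean square difference of mean-centered log2 CPM over the 6 libraries, a description in which all genes share the same libraries. Among the 10 genes, *Keap1* and *Srxn1* were the closest pair, at 0.11, and *Nfe2l2* and *Gclc* stood at 0.147. *Slc7a11* was nearest to *Nqo1*, at 0.71. Among 10817 genes with at least 100 counts in every library, *Nfe2l2* was nearest to *Mov10* (0.0406), *Rnf135* (0.0543) and 5430416N02Rik (0.0643). *Slc7a11* had no near neighbor: the closest were *Hmgcs1* (0.516), *Idh1* (0.521) and *Ly6a* (0.534).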

How the data were processed

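Total RNA was depleted of ribosomal RNA, made into stranded libraries and sequenced in pairs. The authors trimmed reads (Cutadapt 1.18), used STAR 2.7.0f for alignment to mm10 and deposited RSEM expected counts for GENCODE M21, neither normalized nor filtered. The submitters' processing notes give bcl2fastq 2.17 and RSEM 1.3.1; the methods name other versions of both. Expected counts were rounded to whole counts, and the 3 columns of a condition were summed to 1 library.

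Log2 ratios of CPM used TMM factors (edgeR 4.0.16, R 4.3.3) and a prior count of 0.5, with exact (Clopper-Pearson) 95% intervals of the split of counts between the 2 libraries; for a difference of ratios the interval came from counting standard errors. The scripts were tested on simulated data. The alternatives were other scalings, filters and prior counts, each column left out, and edgeR and DESeq2 1.42.0 fitted to the columns with an adjusted p under 0.05.

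The 10 genes, the gene lists and the naming rule were chosen with earlier results of these data known. Named were the 10 genes and, per list, up to 4 called genes with the largest ratio and at least 100 counts in each treatment comparison, or up to 2 in the others; *Sesn2* and *Txnip* levels are also given. Gene locations came from GENCODE M21 and sequences from RefSeq.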

Additional observations from a re-analysis of the deposited data

Results flagged for a closer look

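For 3 of the 10 genes the CYC065 over vehicle ratio went one way in a sorted population and the opposite way in unsorted cells, with both counting intervals away from 0. The sorted log2 ratio exceeded the unsorted one for *Slc7a11* by 4.30 in 2N and 3.85 in 4N cells, for *Nqo1* by 2.31 in 2N and 2.05 in 4N cells, and for *Gclm* by 0.64 in 2N cells. These are the differences given above and not a further result. With 1 library per condition, the difference was not tested between cultures. The share of all genes with opposite signs by this rule was not counted, so the count of 3 has no reference. Differences over 3, a stricter class that *Slc7a11* met and *Nqo1* and *Gclm* did not, were found in 42 of 13656 genes (0.308%) in 2N and 24 of 13690 (0.175%) in 4N cells.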

How the results depend on the processing

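Of 252 recomputed counts of called genes among the 10, 8 changed, each from 3 to 4 in 2N or 4N cells through *Nfe2l2*, and no called ratio reversed among 960 recomputed log2 ratios. The largest shift was 0.197, with scaling to library size only, which moved the median of all genes in CYC065 2N and 4N over unsorted cells from 0.01 to 0.19 and from 0.03 to 0.23, in CYC065 over vehicle from -0.07 to 0.07 in 2N and from -0.03 to 0.11 in 4N cells, and raised the share of higher calls from 55.3% to 66.5% (CYC065 over vehicle, 4N), from 52.4% to 69.5% (2N over unsorted, CYC065) and from 47.0% to 68.2% (4N over unsorted, CYC065). Leaving out a column in turn moved log2 ratios by at most 0.115.

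Calls over all genes depended more on the count filter. Without one, they numbered 10317, 11676 and 10880 for CYC065 over vehicle in unsorted, 2N and 4N cells, 5458 and 7194 for 4N over 2N with vehicle and CYC065, 7071 and 7503 for 2N and 4N over unsorted cells with vehicle, 7874 and 7663 with CYC065, and 9577 for the difference of responses, against 3607, 3965, 3625, 357, 510, 1430, 1675, 954, 1265 and 1032. With at least 100 counts the last 7 were 120, 216, 890, 935, 436, 740 and 309, and with the interval wholly beyond 2-fold 70, 163, 745, 865, 352, 583 and 108. For the difference of responses, edgeR on the columns called 542 genes, 531 with the replicate block, and DESeq2 344. Same-numbered columns did not deviate together (correlations from -0.457 to 0.314, median -0.00255, over 45 pairs), so the numbers do not pair samples.

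Depth did not limit the 10 genes, whose lowest count was 207. The absence of a second library per condition did: counting intervals say nothing of cultures, sorts or library preparation.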
